A study of Zea mays with 22 samples.

Results

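The maize genes mbd111, sgb102 and gtc102 carry names from the chromatin gene nomenclature, and they are 3 of the 329 genes that the platform annotation names on the arrays. They were found by gene symbol or synonym: mbd111 under its own symbol, sgb102 as a synonym of a gene also listed as GNAT19, and gtc102 as a synonym of a gene also listed as SPT16. The genes were chosen from earlier results on these same data. sgb102 had been the 1 chromatin probe past the threshold in the 2 h high regime, and the values behind the choice of mbd111 and gtc102 are not recorded. Their values farthest from 0 lie on single organ profiles, so those are described here as values that may have chosen them. The genes are spotted as 4 probes in each of the 2 value tables, of which 2 belong to mbd111 (probe A and probe B) and 1 each to sgb102 and gtc102. A probe is 3 consecutive spots, and its value is their mean. The 4 probes were spotted from different source plates, inferred from the print order as plates 46 and 50 for mbd111, plate 8 for sgb102 and plate 23 for gtc102.

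Chromatin packs nuclear DNA around histones. The arrays measured RNA, and what the proteins of these genes do is taken here from their names and synonyms alone. Proteins with a methyl-CpG-binding domain, the family that gives mbd111 its name, are named for the binding of DNA whose cytosines are methylated. The sources used here do not say whether the protein of mbd111 binds such DNA. SPT16 is a subunit of FACT, a histone chaperone that loosens and rebuilds nucleosomes ahead of and behind RNA polymerase. GNAT names the GCN5-related N-acetyltransferases, a broad enzyme family that includes histone acetyltransferases, and the sources used here do not say which substrate the protein of sgb102 acts on. UV-B damages DNA, and in plants it sets off changes in transcription. No sequence is shown, because neither the value tables nor the reference tables used here hold probe or gene sequences.

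Each of the 22 spotted arrays compared 2 total RNAs of maize (Zea mays) by hybridising them in 2 colours. In the second table, 8 arrays covered 4 UV-B regimes against plants without UV-B, with 2 arrays for each. Their labels read 2 h high, 8 h high, 8 h low and 4 h medium, each after the word reciprocity. In the first table, 14 arrays set organs after 8 h of UV-B against control organs (seedling leaf, adult leaf, tassel, root and immature ear), adult leaves bagged with CA against those bagged with PE on exposed plants, and PE-covered leaf of exposed against control plants. The labels do not spell out CA and PE, give no age or maize line in the fields used here, state no UV-B dose beyond the words low, medium and high, and do not say whether the 2 arrays of a group came from separate plants or extracts. The p-values therefore measure only the spread between these arrays, which may be technical and is pooled largely over all probes. The first array of a group carried the treated RNA in channel 1 and the second in channel 2, with the exception of immature ear array 3, which again carried it in channel 1.

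Several columns of the first table held 1 profile more than once, within a tolerance of 1e-06. Seedling leaf, root and tassel arrays 1 and 2, and immature ear arrays 2 and 3, differed only by a constant, and the first immature ear column repeated the first tassel column without any offset at 15749 spots. Counting a repeated profile only once left 9 of them, and seedling leaf, tassel, root, immature ear and PE-covered leaf had 1 profile each. The profile shared by tassel and immature ear is called tassel here because both tassel columns hold it, but which tissue it came from cannot be told from the files. The sources used here do not say which RNA is the numerator of a deposited ratio. A positive log2 ratio is taken, as an assumption, to mean more signal from the UV-B exposed tissue than from its control, or from leaf in the CA bag than in the PE bag, and the sign of a whole table and of any single profile is not settled. Every value below is a log2 ratio on an array whose median probe was set to 0. A difference in a ratio from whole tissue cannot tell fewer cells of a type apart from less RNA per cell.

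In the 4 regimes the members stayed within about 1 log2 unit of the array median, and most of their 8 values lay close to it. The acetyltransferase-family gene sgb102 had the farthest value, 0.86 on array 1 of the 2 h high regime, against 0.13 on array 2. Across 5258 probes the 2 arrays of this regime, read as deposited, correlated at 0.80. For sgb102 they were on the same side of 0 but far apart. Their fitted mean was 0.50 ± 0.15 (SE, n = 2 arrays), a fold of 1.41 with a 95% interval of 0.20 to 0.80 on the log2 scale, and it was past the adjusted p threshold of 0.05 in the limma fit that chose this gene. In that regime 13.7% of the 5199 probes tested passed in either direction and 11% passed as higher, so 1 of 4 member probes past the threshold is read against that background and supports nothing further. The SE draws mostly on the spread of all probes and less on these 2 arrays. Without 2 h high array 1 the fitted value was 0.01 and the call was lost, and without array 2 the value was 0.99. Such a value is the remaining array corrected by a channel orientation term from the other regimes, so it can lie outside both measured ratios. The call was also lost without either 8 h high array, where the value stayed at 0.50, and without the replicate block (limma's adjusted p = 0.15). With the sign of the swapped arrays turned, the log2 value was 0.37 and the call was lost. Under that reading no probe passed in limma, and 9 had an unadjusted p under 0.05.

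In the other regimes sgb102 was positive on 5 of its 6 arrays. It measured -0.11 and 0.32 at 4 h medium, 0.20 and 0.55 at 8 h low, and 0.15 and 0.10 at 8 h high. The fitted means were 0.10 (95% interval -0.20 to 0.40), 0.38 (0.08 to 0.68) and 0.12 (-0.18 to 0.42), each with an SE of 0.15. The 8 h low value was 0.61 without array 1 and 0.14 without array 2. None passed, with limma's adjusted p of 0.995, 0.227 and 0.946, beside background shares of 0.303%, 0.387% and 3.78% of probes in those regimes. Across all probes the pairs of arrays correlated at only 0.23 at 4 h medium, -0.36 at 8 h low and 0.18 at 8 h high. A mean that did not pass there is not read as no change.

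The methyl-CpG-binding domain gene mbd111 gave its most even pair at 2 h high, where probe A measured 0.36 on both arrays. The fitted mean of probe A was 0.36 ± 0.14 (SE, n = 2 arrays; 95% interval 0.08 to 0.64), a fold of 1.28, and it missed the threshold with limma's adjusted p = 0.0832. It passed under some other settings, namely with array weights (1.39e-06, a setting under which 2624 of 5199 probes passed), with the median of each print block at 0 (0.40, adjusted p = 0.0113), and without either 8 h low array (adjusted p = 0.0238). With the swapped arrays turned the value was -0.00. Without 2 h high array 1 the fitted value was 0.19, although the array left measured 0.36. The gap is the orientation term, which then came from the other regimes, so it does not show an uneven pair. Probe A had 0.10 and 0.34 at 4 h medium, -0.04 and 0.70 at 8 h low, and -0.02 and 0.03 at 8 h high. The arrays of the 8 h low pair stood far apart for this probe, and across all probes that pair correlated at -0.36. The direction of these 2 arrays relative to each other is therefore not settled, which limits every 8 h low mean and contrast given here. Fitted means were 0.22 (-0.06 to 0.50), 0.33 (0.04 to 0.61) and 0.00 (-0.28 to 0.29), with limma's adjusted p of 0.995, 0.259 and 0.999. Without 8 h low array 1, the fitted value of probe A at 8 h low was 0.65. Without 8 h low array 2 it was 0.01, so the value rests on which array is kept.

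Probe B of mbd111 had fitted means nearer to 0 than probe A at 2 h high, 4 h medium and 8 h low, and slightly farther at 8 h high. It measured -0.03 and 0.07 at 2 h high, -0.05 and 0.31 at 4 h medium, -0.09 and 0.31 at 8 h low, and -0.07 and 0.12 at 8 h high. Array 1 was negative and array 2 positive in all 4 regimes, so the sign of this probe followed the array number, which is the channel orientation. The fitted means of 0.02, 0.13, 0.11 and 0.03 each had an SE of 0.135, and none passed (limma's adjusted p from 0.722 to 0.995). With the medians of source plates at 0 the 2 h high value was -0.25.

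The FACT subunit gene gtc102 measured -0.14 and -0.25 at 2 h high, -0.09 and 0.07 at 4 h medium, -0.01 and -0.45 at 8 h low, and -0.00 and -0.16 at 8 h high. It was below 0 on 7 of 8 arrays, and only 4 h medium array 2 was positive. The fitted means were -0.20 (-0.47 to 0.08), -0.01 (-0.29 to 0.26), -0.23 (-0.50 to 0.05) and -0.08 (-0.36 to 0.20), each with an SE of 0.137 and n = 2 arrays. None passed, with limma's adjusted p of 0.399, 0.995, 0.434 and 0.968, although with array weights the 2 h high value of -0.20 did (0.0115). The 8 h low mean was -0.43 without array 1 and -0.03 without array 2 of that regime.

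**Figure D1:**
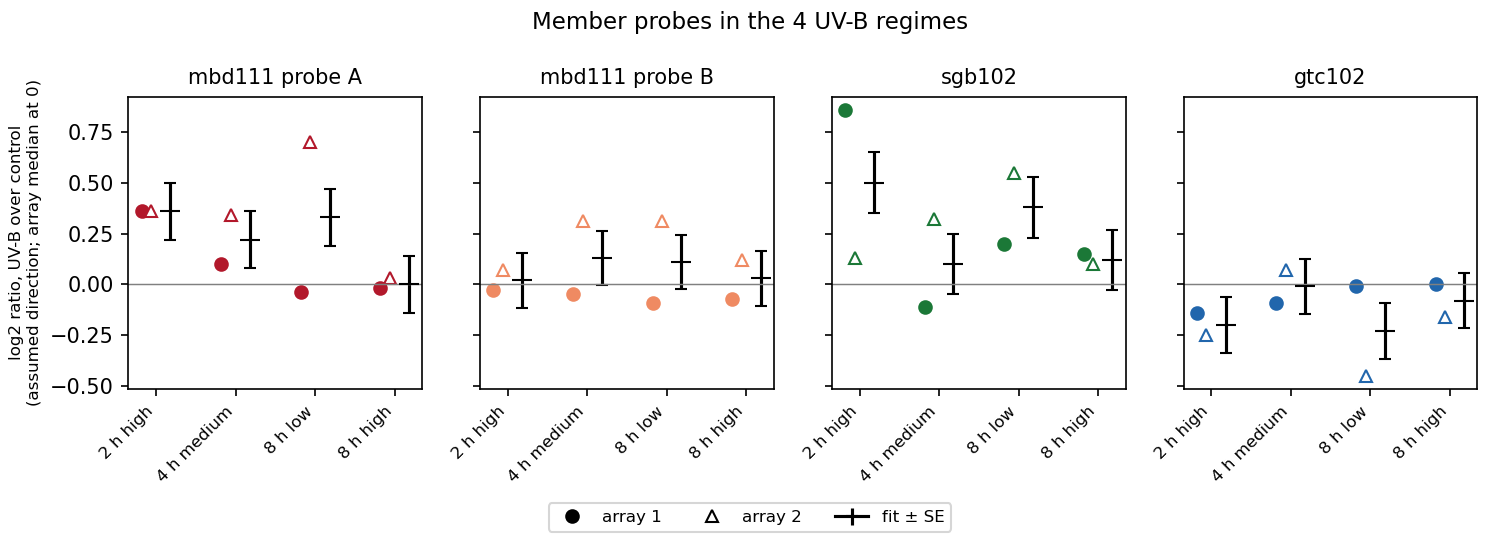
Log2 ratios (vertical axis, array median at 0) of the 4 member probes in the 4 regimes (horizontal axis), with array 1 as filled circles, array 2 as open triangles and the fitted mean ± SE in black. The 2 arrays of sgb102 at 2 h high lie at 0.86 and 0.13, and those of mbd111 probe A at 8 h low lie at -0.04 and 0.70.

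The regimes were set against each other in 5 contrasts of the same fit. By label, only intensity differed in 8 h high minus 8 h low, and only duration in 8 h high minus 2 h high. In the others duration and labelled intensity changed together, so their parts cannot be told apart. No member probe passed in any contrast in limma, and none had an unadjusted p under 0.05. Over all probes, that p was reached by 217 of 4867 in 4 h medium minus 8 h low, the fewest. In 8 h high minus 2 h high, with the most, it was reached by 1261 of 5061. The background shares of probes past the threshold were 6.76% for 2 h high minus 4 h medium, 5.28% for 2 h high minus 8 h low, 0% for 4 h medium minus 8 h low (where 217 probes had an unadjusted p under 0.05), 0.636% for 8 h high minus 8 h low and 11.4% for 8 h high minus 2 h high. The member values with the smallest adjusted p both came from the last contrast. There mbd111 probe A differed by -0.35 ± 0.199 (SE; 95% interval -0.75 to 0.05; limma's adjusted p = 0.27), and sgb102 by -0.38 ± 0.212 (-0.80 to 0.05; 0.272). Without 2 h high array 2 the sgb102 difference was -0.86 with limma's adjusted p = 0.0465, and without 2 h high array 1 it was 0.11. With the block medians at 0 the mbd111 probe A difference was -0.39, with limma's adjusted p = 0.0498. Without 2 h high array 1 it was -0.18 (0.833), without array 2 it was -0.52 (0.423), and with the swapped arrays turned it was -0.02.

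In the other contrasts sgb102 at 2 h high exceeded 4 h medium by 0.39 ± 0.212 (-0.03 to 0.82; limma's adjusted p = 0.428), a difference that passed with array weights (0.00103). Without 2 h high array 1 it was -0.10, and without array 2 it was 0.88. For mbd111 probe A, 8 h high lay -0.32 ± 0.199 from 8 h low (-0.72 to 0.08; limma's adjusted p = 0.539), and -0.64 without 8 h low array 1 (0.0386), but -0.00 without 8 h low array 2 (1). Between 4 h medium and 8 h low the differences were -0.11 for mbd111 probe A, 0.02 for probe B, -0.27 for sgb102 and 0.22 for gtc102. All 4 intervals contained 0, the widest of them for sgb102 from -0.70 to 0.15, which leaves room for a difference of more than 1.5-fold downward.

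Adult leaf after 8 h of UV-B gave small values for every member that was measured. gtc102 measured 0.11 and -0.12 on arrays 1 and 2, and its fitted mean was -0.00 ± 0.233 (SE, n = 2 arrays; 95% interval -0.46 to 0.45). The fit pooled the spread over all probes, so every probe tested here had this SE. sgb102 measured -0.13 on array 1, from 1 spot, and 0.03 on array 2, with a fitted mean of -0.05 (-0.51 to 0.41). limma's adjusted p was 0.996 for both, and 1.58% of the 1962 probes tested in adult leaf passed. Probes A and B of mbd111 measured -0.11 and -0.06 on array 1 and were blank on array 2, so they had no test. Adult leaf array 2 had a value at 32.7% of spots and correlated at -0.18 with array 1, -0.35 with PE-covered leaf and -0.52 with immature ear, so its direction is not settled. With array 2 turned the other way, the adult leaf means were 0.12 for gtc102 and -0.08 for sgb102.

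The bag arrays compared UV-B exposed leaf in the CA bag with that in the PE bag, and the labels do not say whether both came from the same plants. Here mbd111 probe B was below 0 on both arrays, at -0.31 and -0.20, with a mean of -0.26. Probe A measured -0.19 and 0.02, with a mean of -0.08. Neither mbd111 probe could be tested in the joint fit with adult leaf, because it was blank on an adult leaf array and had no residual degree of freedom. gtc102 measured 0.18 and -0.02, the latter from 2 spots, and sgb102 measured 0.03 and 0.14. Their fitted means of 0.08 (95% interval -0.38 to 0.54) and 0.09 (-0.37 to 0.55) did not pass (limma's adjusted p = 0.999 for both), beside 3.62% of all probes tested.

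For mbd111 probe A and gtc102 the farthest values lay on the single profiles, which have no replicate check. mbd111 probe A was below the array median on all 5. It measured -0.66 in seedling leaf, -0.63 in tassel, -0.77 in root, -1.05 in immature ear and -0.52 in PE-covered leaf, which are folds of 1.58, 1.55, 1.71, 2.07 and 1.44 below the median. The 3 spots of the probe agreed closely on each array, with an SD of 0.0183 to 0.0792, which measures the printing and hybridisation of that array and not biological spread. In immature ear, 0.886% of probes lay as far from 0 as probe A, in root 4.14%, in tassel 7.43%, in seedling leaf 8.51% and in PE-covered leaf 15.3%. The immature ear profile had a value at only 47.4% of spots, the fewest of the 5, so its share is taken over fewer probes.

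Past 1.5-fold (0.58 on the log2 scale), mbd111 probe A was lower on 4 of 5 profiles, all but PE-covered leaf. The background shares of probes at least 1.5-fold lower were 4.8% in seedling leaf, 1.18% in tassel, 2.68% in root, 8.55% in immature ear and 6.18% in PE-covered leaf. These counts describe values that may have chosen the gene, and nothing is read from them. With the median of each source plate at 0, the count was 2 of 5 (root -0.75 and immature ear -0.76), and the plate of probe A had a median of -0.29 in immature ear, -0.23 in tassel and -0.11 in seedling leaf. With block medians at 0 it was 3 of 5, namely root (-0.72), immature ear (-0.89) and PE-covered leaf (-0.63), while seedling leaf (-0.27) and tassel (-0.53) were under 1.5-fold. Without centring, root and immature ear passed. The part of print position in the result was not tested beyond these values.

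gtc102 ran the other way on most of these profiles. It measured 0.37 in seedling leaf, 0.90 in tassel, 0.58 in root, 0.60 in immature ear and -0.36 in PE-covered leaf, and so had the opposite sign to mbd111 probe A on 4 of 5 profiles. The tassel value, a fold of 1.87, was matched or exceeded in distance from 0 by 2.04% of probes. At least 1.5-fold higher were tassel and immature ear, while root lay just under the threshold. The background shares of probes at least 1.5-fold higher were 7.52% in seedling leaf, 8.44% in tassel, 8.28% in root, 5.93% in immature ear and 5.36% in PE-covered leaf. The source plate of gtc102 had a median of 0.27 in tassel and 0.37 in immature ear, and with plate medians at 0 the values there were 0.63 and 0.23, so that 1 profile passed 1.5-fold. With block medians at 0 tassel (0.80) and root (0.64) passed, and immature ear (0.44) did not. In the regimes gtc102 lay on the other side of 0, but the direction of neither table is settled, and the organ and regime signs are not compared.

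sgb102 was below the median on all 5 profiles, at -0.24 in seedling leaf, -0.43 in tassel, -0.42 in root, -0.23 in immature ear and -0.69 in PE-covered leaf. Only the PE-covered leaf, which compared covered leaves of exposed and control plants, lay past 1.5-fold, with a fold of 1.61. In that profile 7.67% of probes were as far from 0. With plate medians at 0 the tassel value became -0.66 and also passed 1.5-fold, and with no centring of the array none of the 5 did.

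**Figure D2:**
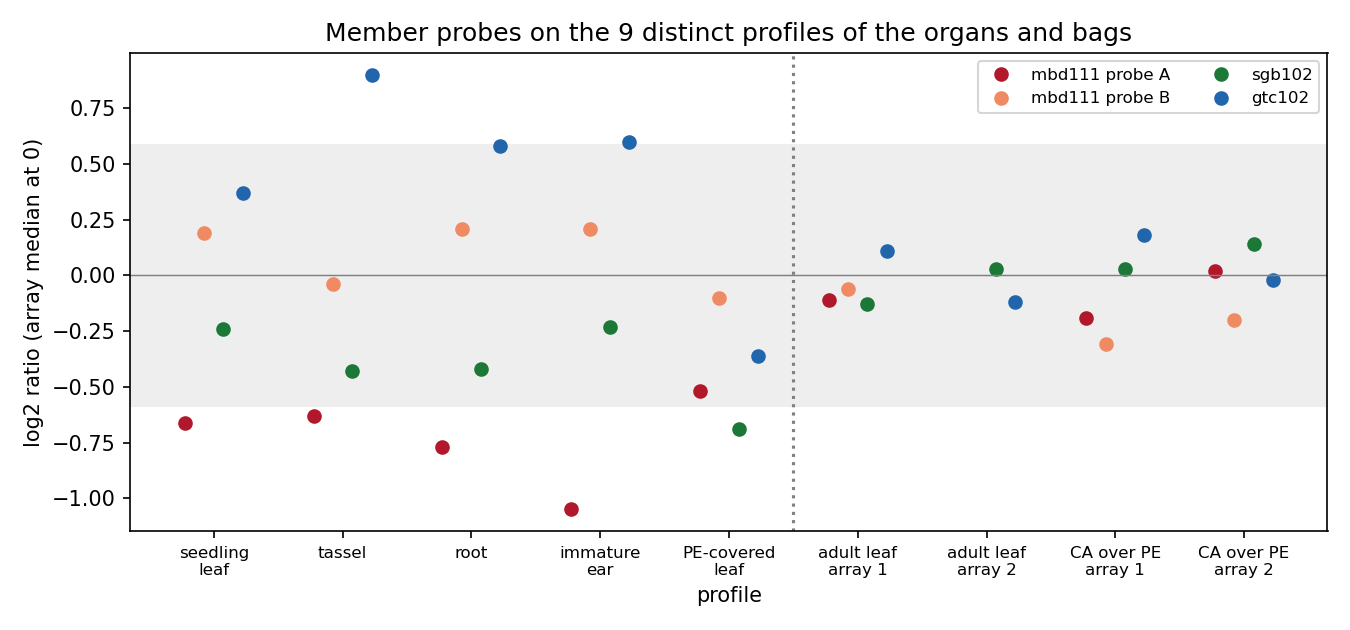
Log2 ratios (vertical axis, array median at 0) of the 4 member probes on the 9 distinct profiles of the first table (horizontal axis), where the grey band marks less than 1.5-fold and the dotted line separates the 5 single profiles from the adult leaf and bag arrays. mbd111 probe A lies at or below -0.52 on all 5 single profiles, gtc102 reaches 0.90 in tassel, and the adult leaf and bag values lie between -0.31 and 0.18.

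The 2 probes of mbd111 did not give 1 answer for the gene. On the single profiles probe B measured 0.19 in seedling leaf, -0.04 in tassel, 0.21 in root, 0.21 in immature ear and -0.10 in PE-covered leaf, and never reached 1.5-fold. Probe A minus probe B was -0.85, -0.59, -0.99, -1.26 and -0.42 on those profiles in the same order, so probe A was the lower on all 5. On the 8 regime arrays the difference was positive on 7, between 0.03 and 0.39, and -0.09 on 8 h high array 2. On adult leaf array 1 it was -0.05, and on the CA and PE arrays 0.13 and 0.22. The probes are not known to lie in the same part of the transcript, and the sources used here do not say whether either one also binds transcripts of related genes. A value for mbd111 as a gene is therefore uncertain wherever the 2 probes part, and the low organ values belong to probe A.

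**Figure D3:**
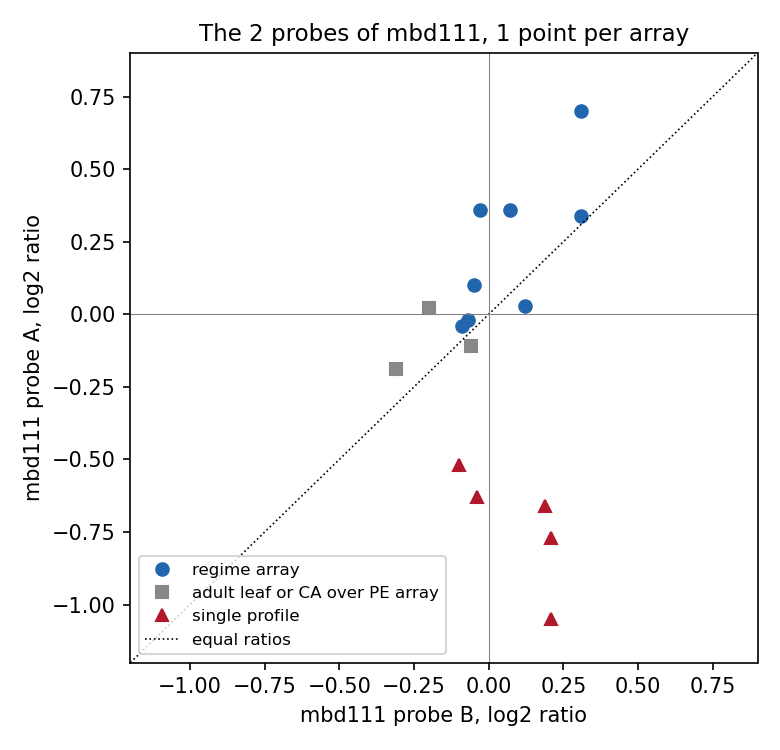
Log2 ratio of mbd111 probe A (vertical axis) against probe B (horizontal axis), 1 point per array, with regime arrays as blue circles, adult leaf and bag arrays as grey squares and single profiles as red triangles. The 5 single profiles lie below the dotted line of equal ratios, where probe A minus probe B is -0.42 to -1.26. The other points lie within 0.39 of it. PE-covered leaf, at -0.42, is about as far from the line as 2 h high array 1, at 0.39 on the other side.

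The other chromatin genes on the arrays were gathered by name from the annotation, as 21 probes of 17 genes with the members included. In limma, none of the 17 probes outside the members passed in any of the 4 regimes or the 5 contrasts. Those with an unadjusted p under 0.05 numbered 2 at 2 h high and 1 at 4 h medium. There were 0 at 8 h low, at 8 h high and in each contrast. Over all probes tested the numbers were 1355 of 5199 at 2 h high, 265 of 5287 at 4 h medium, 754 of 4906 at 8 h low and 611 of 5210 at 8 h high. The counts are read as no more than that background. Over all 21 probes the median was 0.11 at 2 h high, 0.07 at 4 h medium, 0.04 at 8 h low and 0.00 at 8 h high, against medians of all probes between -0.01 and 0.00. At 2 h high the highest non-member was dmt101, a maintenance DNA methyltransferase also listed as met1, at 0.37 (limma's adjusted p = 0.0719), and the lowest was nfc102 probe B at -0.18. The extremes at 4 h medium were nfa104 at 0.36 (0.596) and hac106 at -0.19. At 8 h low they were dmt101 at 0.24 and the histone deacetylase Hda1 (probe B) at -0.28, and at 8 h high RPD2 probe A at 0.20 and hac106 at -0.15.

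In the contrasts the extremes among non-members were RPD2 probe B at 0.30 and nfc102 probe B at -0.27 for 2 h high minus 4 h medium, and RPD2 probe A at 0.28 and nfc102 probe B at -0.26 for 2 h high minus 8 h low. Hda1 probe B was the highest in the remaining 3, at 0.37, 0.42 and 0.23, where the lowest were hac106 at -0.09, dmt101 at -0.23 and dmt101 at -0.37. In adult leaf, 8 list probes could be tested, with dmt101 at 0.37 and the histone deacetylase HDA108 at -0.45 as the extremes. For CA over PE they were nfc102 probe B at 0.30 and nfa104 at -0.30, and none passed in either comparison.

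On the single profiles, mbd111 probe A was the lowest list probe in seedling leaf, tassel, root and immature ear, and gtc102 the highest in tassel, root and immature ear. In PE-covered leaf both extremes were non-members, and sgb102 and mbd111 probe B were at neither end of any profile. Past 1.5-fold outside the members were the centromeric histone gene cenH3 in seedling leaf at -0.60, hac106 in root at -0.71, dmt101 in immature ear at -0.61 and the histone deacetylase gene hda110 in PE-covered leaf at -0.73, all lower. With the members, the list had between 13 and 19 probes with a value. Its median was 0.15 in seedling leaf, -0.21 in tassel, -0.03 in root, -0.26 in immature ear and -0.10 in PE-covered leaf. Without the members the medians were 0.15, -0.21, -0.03, -0.35 and -0.01 in the same order. The members were chosen with such values known, so nothing is read from their places in the list.

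**Figure D4:**
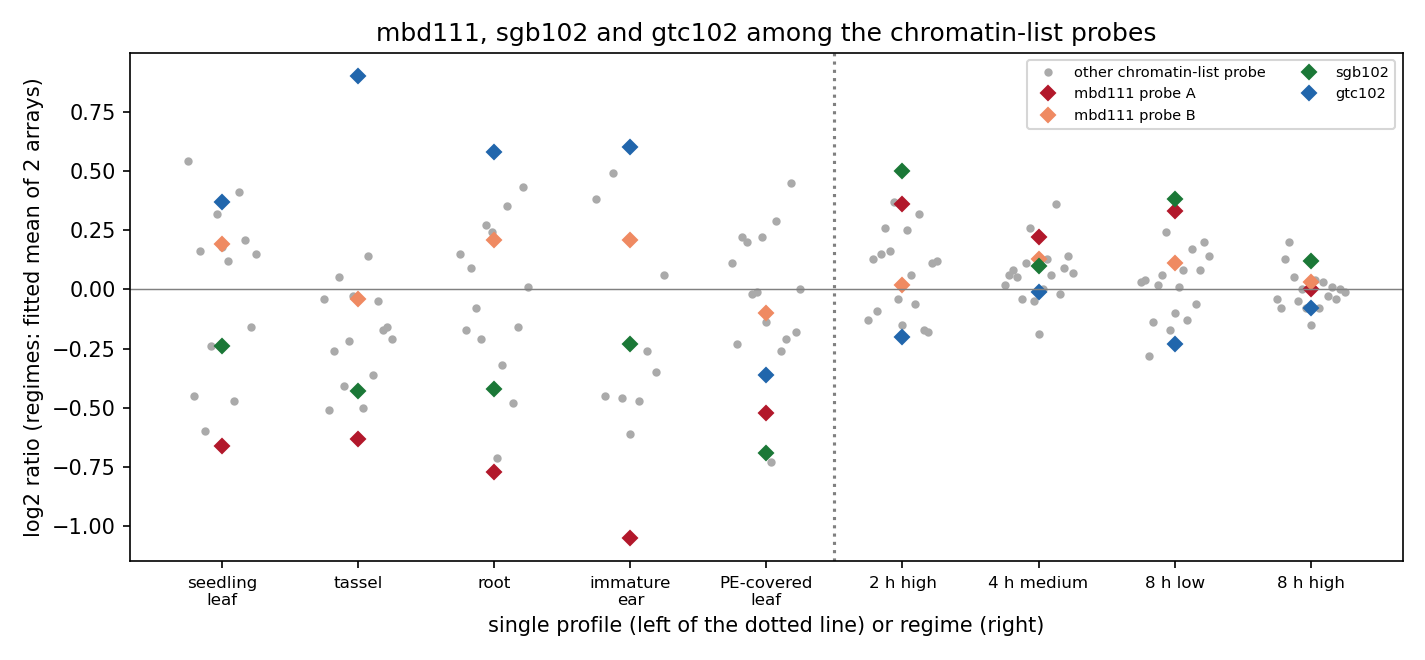
Log2 ratios (vertical axis) of the chromatin-list probes on the 5 single profiles and, as fitted means of 2 arrays, in the 4 regimes (horizontal axis), with members as coloured diamonds and the other list probes as grey dots. mbd111 probe A is the lowest list probe in 4 single profiles, and gtc102 the highest in 3.

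Likeness of pattern was measured as Pearson's correlation over the 8 regime arrays, against 342 or 343 named probes of other genes. It is a description: the 8 arrays are pairs of 4 regimes that share channel orientations and a common centring, so the points are not independent. dmt101 came closest to mbd111 probe A, at 0.95, followed by the protein kinase gene TOR at 0.94 and cfm6 at 0.93. dmt101 measured 0.32 and 0.43 at 2 h high, 0.02 and 0.50 at 4 h medium, -0.20 and 0.67 at 8 h low, and -0.10 and 0.11 at 8 h high. Its highest value, like that of probe A, came from 8 h low array 2, and its array 2 exceeded its array 1 in each regime. On the single profiles it had the opposite sign to probe A in root, at 0.27 against -0.77. Elsewhere it was negative but nearer to 0 than probe A. It measured -0.24 against -0.66 in seedling leaf and -0.22 against -0.63 in tassel. In immature ear the values were -0.61 against -1.05, and in PE-covered leaf -0.01 against -0.52.

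For mbd111 probe B the closest were a probe of the small GTPase gene yptm3 at 0.95, of the translation elongation factor gene EF1A at 0.92 and of 1 gene with no name beyond its locus number at 0.91. sgb102 was closest to probes of the MAP kinase gene MPK5 at 0.88, of IDI2 at 0.80 and of the asparagine synthetase gene asn1 at 0.77. gtc102 was closest to probe B of Hda1 and a probe of cys2, both at 0.90, and to a probe of the allene oxide synthase gene aos1 at 0.89. These correlations belong to single probes, and other probes of the same genes did not share them. Hda1 probe A correlated with gtc102 at -0.65 and the other cys2 probe at 0.60, the other EF1A probe correlated with mbd111 probe B at -0.53, and further probes of IDI2 and asn1 correlated with sgb102 at 0.14, 0.40 and -0.22. Among the members, probes A and B of mbd111 correlated at 0.72, while probe A correlated at 0.60 with sgb102 and -0.71 with gtc102. Probe B correlated at 0.24 with sgb102 and -0.37 with gtc102, and sgb102 at -0.30 with gtc102. The deviations of same-numbered arrays correlated at 0.20 to 0.56 across all probes, so that part of any such likeness goes with the array number.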

How the data were processed

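The values, as deposited by the authors, were read as log2 ratios of both channels. How the authors normalized or filtered them is not stated in any label or header used here. For the base, 0% to 31.6% of an array's repeated values differed by the log2 of a fraction with whole numbers up to 60, against at most 2.24% for the natural log and 1.48% for log10, so many arrays do not settle the base. No intensities were used here, which leaves dim spots unfiltered. A value was present at 32.7% to 99.2% of the 16928 spots of the first table and 83% to 91.7% of the 17296 of the second. The number of arrays limits the precision.

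Every 3 consecutive spots were averaged (5640 and 5760 probes), and each array was centred on its median. The less filled seedling leaf column was used. Print position was inferred from spot order as 8 blocks and plates of 96 wells. Names came from the platform annotation, and 314 of its 329 genes had an entry in the reference table (Zm-B73-REFERENCE-NAM-5.0), from which no coordinates were taken.

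The 8 regime arrays were fitted together in limma 3.58.1 (R 4.3.3), as were adult leaf with CA over PE, with a term for channel orientation and Benjamini-Hochberg adjustment over all probes tested, at 0.05. That term equals the replicate number, since array 2 of each group is the swapped one. limma moved each probe's spread towards that of all probes, with 44.4 prior degrees of freedom beside 3 residual ones in the regime fit. For adult leaf and CA over PE the prior was infinite beside 1, so all probes tested shared 1 SE. Deviations of same-numbered arrays correlated at 0.20 to 0.56 in 6 of 6 pairs, and the block was kept. Because the array number is also the channel orientation, a pairing of arrays cannot be told apart from a channel effect here. The fit was tested on simulated data with known changes. The members and lists were chosen with earlier results of these data known. Every member probe is reported. Of the chromatin list, probes past the threshold and otherwise the highest and lowest are named, and for each member probe the 3 named genes with the closest pattern. Alternatives changed centring, scale, blocks, plates, array weights, swapped arrays, complete spots, gene averages and left-out arrays.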

Additional observations from a re-analysis of the deposited data

How the results depend on the processing

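Over 22 alternative settings the 42 fitted member values gave 704 alternative values. Many of these repeat the estimate by design. Dropping the replicate block, array weights or leaving out an array of another regime left regime means as they were. The share that turned sign therefore does not measure how stable the signs are. Of the 704, 73 turned sign (1 of them from a value with no test, and 26 with swapped arrays read the other way). Of those that did not, 11 gained and 5 lost a call, and 2 untested values moved beyond the arrays' spread. No value that turned sign was called in the fit reported. With 2 arrays a group, these values bound what can be read, and the causes were not tested. Adult leaf and bag values without an array have no test.

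With swapped arrays read the other way, mbd111 probe A was -0.00 at 2 h high, -0.12 at 4 h medium, -0.37 at 8 h low and -0.03 at 8 h high. Probe B was -0.05 at 2 h high, -0.18 at 4 h medium, -0.20 at 8 h low, -0.09 at 8 h high and -0.06 for CA over PE. sgb102 was 0.37 at 2 h high (call lost), -0.22 at 4 h medium, -0.18 at 8 h low and -0.05 for CA over PE. gtc102 was 0.05 at 2 h high, 0.22 at 8 h low, 0.08 at 8 h high and 0.12 in adult leaf. In contrasts that reading gave probe A 0.25 (4 h medium minus 8 h low) and 0.34 (8 h high minus 8 h low), sgb102 0.20 (the latter), probe B 0.13, 0.15, 0.11 and -0.04, and gtc102 0.13, -0.16, -0.30 and -0.14. Probe B's were 2 h high minus 4 h medium, 2 h high minus 8 h low, 8 h high minus 8 h low and 8 h high minus 2 h high, and gtc102's were 2 h high minus 4 h medium, 2 h high minus 8 h low, 4 h medium minus 8 h low and 8 h high minus 8 h low. At 2 h high the count of probes called was 714 as reported, 0 with that reading, 2624 with array weights, 1422 with block medians at 0 and 376 without the replicate block.

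Without the replicate block sgb102 at 2 h high was 0.50 and lost its call (adjusted p = 0.15). The block changed no other member call. Array weights gave calls to probe A at 2 h high (0.36) and 4 h medium (0.22) and to gtc102 at 2 h high (-0.20), and block medians at 0 to probe A at 2 h high (0.40). Without centring, probe A was -0.00 at 8 h high, probe B was -0.01 at 2 h high and -0.01 for 4 h medium minus 8 h low, and for 2 h high minus 8 h low probe A and gtc102 were both -0.03. Probe B at 2 h high was -0.04 with block medians and -0.25 with plate medians at 0. Plate medians also gave probe B -0.02 at 8 h low and 0.04 for 8 h high minus 8 h low, probe A -0.02 for 2 h high minus 8 h low, gtc102 0.03 at 4 h medium and -0.01 for 8 h high minus 2 h high, and sgb102 0.04 and gtc102 0.10 in adult leaf. Scaling gave gtc102 0.05 in adult leaf and -0.05 for 2 h high minus 8 h low, probe A 0.12 for 4 h medium minus 8 h low and probe B 0.01 for 8 h high minus 8 h low. With both mbd111 probes averaged, the gene was 0.01, -0.03, -0.04 and -0.17 in the contrasts 2 h high minus 4 h medium, 2 h high minus 8 h low, 4 h medium minus 8 h low and 8 h high minus 2 h high, and -0.17 for CA over PE.

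Where a group was left with 1 array, its fitted value is that array corrected by the orientation term from the other groups. The ranges below therefore hold that correction and can lie outside the measured ratios. Leaving out each array in turn, the ranges at 2 h high were 0.19 to 0.53 for probe A, -0.09 to 0.12 for probe B and 0.01 to 0.99 for sgb102. At 4 h medium they were -0.19 to 0.39 for sgb102 and -0.21 to 0.19 for gtc102, at 8 h low 0.01 to 0.65 for probe A, 0.02 to 0.20 for probe B, 0.14 to 0.61 for sgb102 and -0.43 to -0.03 for gtc102, and at 8 h high -0.13 to 0.14 for probe A and -0.02 to 0.08 for probe B. In adult leaf gtc102 was -0.03 to 0.02. For 2 h high minus 4 h medium they were -0.03 to 0.31 for probe A, -0.10 to 0.88 for sgb102 and -0.38 to 0.01 for gtc102. For 2 h high minus 8 h low they were -0.29 to 0.35 for probe A, -0.20 to 0.01 for probe B, -0.37 to 0.61 for sgb102 and -0.17 to 0.23 for gtc102. For 4 h medium minus 8 h low they were -0.43 to 0.21 for probe A, -0.07 to 0.11 for probe B and -0.56 to 0.01 for sgb102. For 8 h high minus 8 h low they were -0.64 to -0.00 for probe A, -0.18 to 0.01 for probe B and -0.05 to 0.35 for gtc102, and for 8 h high minus 2 h high -0.52 to -0.18 for probe A, -0.10 to 0.11 for probe B and -0.86 to 0.11 for sgb102. On the single profiles the fuller seedling leaf column moved no member value past or back over 1.5-fold.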
